A study of Mus musculus with 12 samples.

Results

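Complex I, the NADH:ubiquinone oxidoreductase of the inner mitochondrial membrane, passes electrons from NADH to ubiquinone and pumps protons. It is shaped like an L. A peripheral arm in the matrix holds the NADH-oxidising (N) module and the quinone-binding (Q) module, and a membrane arm with a proximal and a distal segment holds the proton pumps, whose pumping subunits are encoded by the mitochondrial genome. Core subunits carry the redox centres and the pumps, while accessory subunits surround them. Brown fat is known for its density of mitochondria and for Ucp1, which lets protons flow back so that respiration gives heat.

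The 35 members described here are nuclear-encoded complex I subunits, taken by gene symbol from the 52550 gene IDs of the count table, with no use of their measured values. All 35 were found, and all passed the filter on low counts in each comparison. By role, 6 were core and 29 accessory subunits. They lay in the N module (10 members), the Q module (5), the proximal membrane arm (9) and the distal membrane arm (11). Their genes were spread over 15 chromosomes, with 2 on the X (Ndufa1 and Ndufb11). Ndufb1 (annotated as Ndufb1-ps), also a nuclear-encoded subunit, was not among the members and is given beside them.

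Polyadenylated RNA of 12 mouse libraries was sequenced, 3 in each of 4 groups: white fat of the inguinal depot (WAT) and brown fat (BAT) of Mcu fl/fl mice, called controls here, and of Mcu fl/fl AKO mice. Mcu is the pore of the mitochondrial calcium uniporter, and AKO is the adipose-specific knockout of it. All groups carry the floxed Mcu alleles and the series text places them on a high-fat diet. No source used here gives the Cre driver or the age of the mice. Nor do the labels say that each numbered replicate was a separate mouse, so the spread behind the p-values is that between libraries and may be technical.

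Library totals lay between 15692588 and 18967159 counts. Mcu, tested as a check of the labels, was at 21.9 ± 0.711 CPM (counts scaled to library size, SD, n = 3) in WAT controls and 12.8 ± 1.57 in WAT AKO, or 58.5% of control. In BAT it was at 22.6 ± 1.89 and 9.36 ± 3.09 CPM, or 41.4%. The groups did not overlap in either tissue, with p = 0.1 by an exact two-sided permutation test, the smallest that 3 against 3 libraries allow. The edgeR test used for the members, adjusted over all genes, did not call Mcu in WAT (adjusted p = 0.080) or in BAT (adjusted p = 0.193). Ucp1 lay between 1951 and 2642 FPKM (fragments scaled to gene length and library total) in BAT and reached at most 8.46 FPKM in WAT, where a control library listed it at 0. Counts of 16 skeletal muscle markers took from 0.0241 to 1.47% of counts in WAT controls, 0.0196 to 2.59% in WAT AKO, 0.00743 to 0.206% in BAT controls and 0.00864 to 1.92% in BAT AKO. The highest shares were in WAT control 1, WAT AKO 2 and BAT AKO 2. Of the 16 markers, 5 had no count in BAT control 3 (Atp2a1, Myh1, Myh2, Tnnc2 and Tnni2), 3 had none in BAT AKO 1 (Ckm, Myh4 and Pvalb), and at most 1 was at 0 in any other library.

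To show what the promoters of members that moved together look like, 4 upstream stretches are printed, from RefSeq windows of GRCm38.p6, on the strand of the gene and ending before any annotated exon. Ndufv1 and Ndufs8 are core subunits with wide differences between the tissues, and Ndufs5 and Ndufb2 are accessory subunits with narrower ones. Their positions are chr19:4012807-4013005 (minus strand) for Ndufv1, chr19:3912775-3913024 (minus) for Ndufs8, chr4:123718203-123718436 (minus) for Ndufs5 and chr6:39592315-39592564 (plus) for Ndufb2. Capitals mark matches to the searched motifs, which are described after the sequences.
Ndufv1: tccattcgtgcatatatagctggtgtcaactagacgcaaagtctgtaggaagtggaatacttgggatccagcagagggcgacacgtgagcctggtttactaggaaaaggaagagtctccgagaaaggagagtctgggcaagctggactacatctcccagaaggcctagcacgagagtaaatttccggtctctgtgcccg
Ndufs8: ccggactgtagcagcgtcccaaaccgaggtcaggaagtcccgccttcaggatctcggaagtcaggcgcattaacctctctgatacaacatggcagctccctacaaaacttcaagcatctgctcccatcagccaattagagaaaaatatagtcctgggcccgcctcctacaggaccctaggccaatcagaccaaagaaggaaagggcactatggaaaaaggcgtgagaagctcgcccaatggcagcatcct
Ndufs5: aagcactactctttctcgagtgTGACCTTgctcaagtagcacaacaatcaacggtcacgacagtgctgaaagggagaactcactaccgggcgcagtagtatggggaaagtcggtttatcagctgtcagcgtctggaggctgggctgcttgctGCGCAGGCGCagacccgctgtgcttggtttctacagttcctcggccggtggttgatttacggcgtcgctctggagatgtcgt
Ndufb2: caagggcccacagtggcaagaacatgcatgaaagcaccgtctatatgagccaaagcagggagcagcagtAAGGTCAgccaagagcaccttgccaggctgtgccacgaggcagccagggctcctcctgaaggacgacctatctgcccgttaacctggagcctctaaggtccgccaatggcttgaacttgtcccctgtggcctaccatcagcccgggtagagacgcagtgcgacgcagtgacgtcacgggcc

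RefSeq windows of 250 bases before to 50 bases after the start site were matched by symbol for 32 of the 35 members, in 34 windows. Ndufa2, Ndufb9 and Ndufs1 had none. Both strands were searched for 5 motifs: that of NRF1 (GCGCA, any base, GCGC), that of YY1 (AA, any base, ATGGCGGC), CCGGAAGT of ETS factors such as GABP, AAGGTCA of the oestrogen-related receptors (ERR), and TNAAGGTCA, a longer ERR motif that contains the shorter one. NRF1 and GABP are known as activators of nuclear respiratory genes. The NRF1 letters were in 8 of 34 member windows (23.5%) against 4.6% of all 32851 windows. Overlapping windows of Ndufa5 held the same site, and by gene the share was 7 of 32 members (21.9%) against 5.19% of all genes. Ndufb4 held 3 copies, starting 191, 79 and 22 bases before the start site. The YY1 letters were in 4 windows (11.8%) against 0.986% of all, and in each of them (Ndufa9, Ndufs7, Ndufs6 and Ndufs4) the match lay after the start site. AAGGTCA was in 3 windows (8.82%, all 4.72%), of Ndufs5, Ndufb2 and Ndufb4, and the longer ERR motif was in 1 (2.94%, all 1.28%), of Ndufb4. CCGGAAGT was in 1 window (2.94%, all 3.89%), of Ndufs3. In the printed stretches, Ndufs5 holds an NRF1 match and an ERR match, the latter on the opposite strand. Ndufb2 holds an ERR match on its own strand. The Ndufv1 and Ndufs8 stretches hold none of these letters. The 4 stretches are a pick, so this contrast is no result about wide and narrow differences. Among stretches of other members cut in the same way, some short or empty, only that of Ndufb4 held a match (NRF1). Those of Ndufb7, Ndufc2 and Ndufb3, with narrower differences in controls than Ndufs5, held none. Whether motifs go with the difference between tissues was not tested.

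Within a tissue the members differed widely in level per length. Ndufb9, a distal membrane arm subunit, was highest in each of the 4 groups and Ndufb2, of the same arm, was lowest. Ndufb9 had levels in WAT controls 207, 175 and 160.5, in WAT AKO 169, 194 and 191, in BAT controls 730.2, 791 and 671 and in BAT AKO 773, 695 and 651 FPKM. Ndufb2 had levels in WAT controls 0.412, 0.563 and 0.482, in WAT AKO 0.559, 0.411 and 0.589, in BAT controls 0.872, 0.953 and 0.835 and in BAT AKO 0.947, 0.949 and 0.750 FPKM. The tissues did not overlap for either gene, although the ratio between them was larger for Ndufb9. Median member level was 46.4 FPKM in WAT controls, 45.1 in WAT AKO, 189.2 in BAT controls and 177.5 in BAT AKO. The order of members by mean FPKM was much the same in the 2 tissues (Spearman's rho 0.925 in controls and 0.935 in AKO, over 35 genes that share libraries and gene lengths). Replicates were close, with a median coefficient of variation over members of 11.3% in WAT controls, 6.24% in WAT AKO, 6.54% in BAT controls and 6.32% in BAT AKO.

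Low FPKM of a member can rest on its gene model. The length behind the Ndufb2 values was 5628 bases, whereas its annotated transcripts run from 422 to 4371 bases. For Ndufab1 it was 6883 bases, with transcripts of 261 to 3479 bases. The lowest count of any member in any library was 41, for Ndufb2, and the highest was 21153. Ndufb2 held 41 to 90 counts per library and Ndufab1 397 to 1933, so Ndufb2 was low in counts as well. Tests on counts do not use these lengths, but differences on the log2(FPKM + 1) scale do. On that scale the difference of Ndufb2 between tissues was 0.35 in controls, beside 1.23 from counts.

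**Figure D1:**
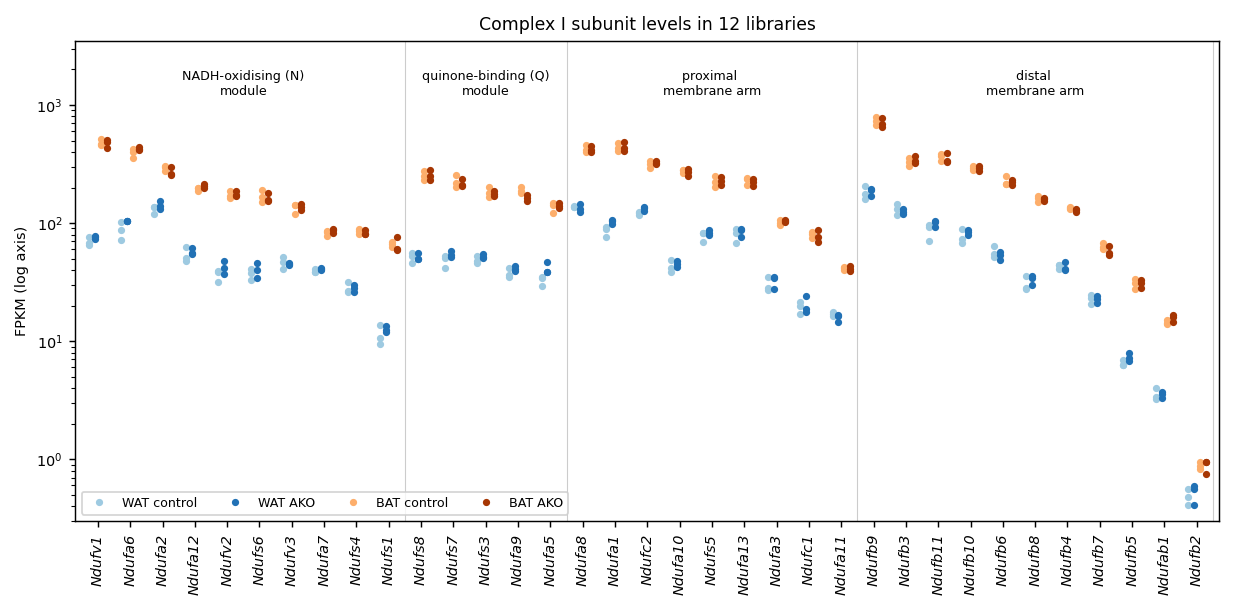
FPKM (log axis) of the 35 members in each of 12 libraries, grouped by module and ordered by mean within it, with 3 points per group. In every member the 6 BAT points lie above the 6 WAT points, and Ndufb9 and Ndufb2 mark the highest and lowest levels.

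Every complex I member was higher in BAT than in WAT. In controls the median member was 5.04-fold higher, with members from 2.34-fold (Ndufb2) to 8.86-fold (Ndufv1) higher. All 35 passed the test (edgeR's quasi-likelihood test, adjusted p under 0.05, TMM scaling), where 24.4% of the 15031 genes tested were called higher. All 35 were also higher in every BAT than in every WAT control library, against 30.2% of all genes. On the log2 scale the median difference was 2.33 over members and -0.04 over all genes tested. In bulk tissue, fewer cells of a type and less RNA per cell cannot be told apart. All 35 members were called and more than 2-fold higher, against 12.1% of genes. Markers of other cells moved with this comparison. Of the markers tested in controls, all 9 of brown adipocytes were higher in BAT (0.585 to 0.669% of counts against 0.0122 to 0.0135%), all 6 of inguinal white adipocytes were lower (0.0176 to 0.0484% against 0.411 to 0.564%), and all 12 of macrophages were lower (0.0310 to 0.0416% against 0.159 to 0.213%). Ucp1 and Zic1, of the brown list, were each at 0 in a WAT control library, Hoxc9 or Hoxc10, of the white list, in each BAT control library, and no macrophage marker was at 0. Of T lymphocyte markers 6 of the 7 tested were lower in BAT (0.000209 to 0.000666% against 0.000944 to 0.0278% for all 10), with Cd28, Cd3d and Cd3g at 0 in BAT control 3. Of B lymphocyte markers 3 of 10 could be tested and none was called. Of 10 endothelial markers 2 were higher (0.157 to 0.179% against 0.111 to 0.212%), and of 7 general adipocyte markers 2 were higher and 2 lower. The part of these markers in the result was not tested.

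In AKO mice the same direction held. All 35 members were called higher in BAT, against 28.8% of 15671 genes, and the median was 5.25-fold (log2 2.39, with -0.02 over all genes), from 2.54-fold (Ndufb2) to 9.35-fold (Ndufv1). None of the 35 overlapped between the tissues, against 32.9% of all genes higher in every BAT library. All 35 were more than 2-fold higher, against 13.8%. Brown adipocyte markers (9 of 9) were higher and white adipocyte (5 of 6) and macrophage (12 of 12) markers lower here as well. All 10 B lymphocyte markers were lower in BAT (0.000509 to 0.000557% of counts against 0.0605 to 0.157%), with Blk and Cr2 at 0 in BAT AKO 2, as were all 10 T lymphocyte markers (0.000373 to 0.000533% against 0.0263 to 0.0512%). Of 10 endothelial markers 7 were higher (0.131 to 0.157% against 0.0873 to 0.135%), and of 7 general adipocyte markers 4 were higher and 2 lower. Their part was not tested. The controls and the AKO comparison use separate libraries. Fold changes here are relative to TMM factors, which offset the composition of each library. FPKM divides by library totals, and genes of the mitochondrial genome took 14.7 to 17.8% of counts in BAT and 2.86 to 3.78% in WAT. Ratios of mean FPKM were smaller, with a median over members of 3.95 in controls and 3.53 in AKO. With library totals as scaling, the all-gene median moved to -0.40 in controls and -0.59 in AKO, and the members' medians to 1.98 and 1.82.

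**Figure D2:**
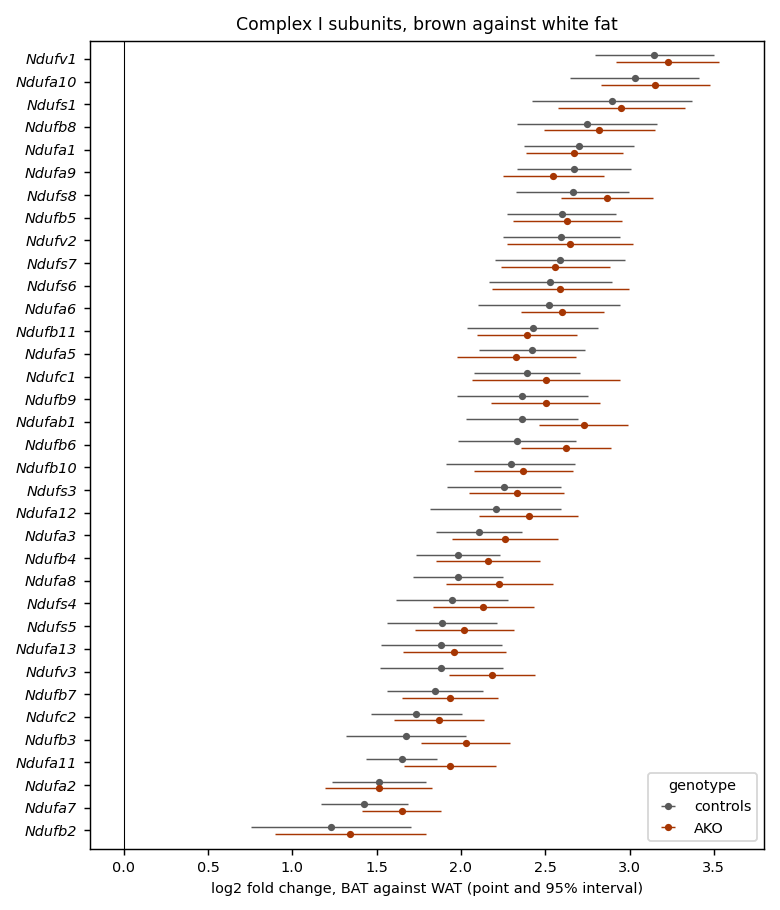
log2 fold change of BAT against WAT for each member with its 95% interval, in controls (grey) and AKO (brown), ordered by the value in controls. All intervals lie above 0, and Ndufv1 and Ndufa10 are at the top with Ndufb2 and Ndufa7 at the bottom in controls.

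Of the 6 core subunits, all but Ndufs3 lay above the members' median in controls. Ndufv1, which binds FMN and takes electrons from NADH, had levels in WAT controls 76.1, 67.8 and 64.8, in WAT AKO 73.2, 77.4 and 76.3, in BAT controls 471, 517 and 460.2 and in BAT AKO 483, 436 and 509.9 FPKM. Its difference was 3.15 ± 0.15 on the log2 scale (SE) in controls (adjusted p = 4.31e-05, edgeR) and 3.23 ± 0.13 in AKO, the widest of all members in both genotypes. Ndufv2, its iron-sulfur partner in the N module, had levels in WAT controls 39.7, 38.4 and 31.6, in WAT AKO 36.9, 47.4 and 41.4, in BAT controls 171, 185 and 162 and in BAT AKO 188, 170.1 and 174 FPKM. Both N module partners were thus separated between tissues in all 12 libraries. Ndufs1, the largest N module subunit and carrier of several iron-sulfur clusters, had levels in WAT controls 13.7, 9.41 and 10.6, in WAT AKO 11.9, 13.3 and 12.4, in BAT controls 66.1, 68.6 and 62.7 and in BAT AKO 60.3, 59.3 and 76.5 FPKM. Among BAT AKO libraries it was highest in replicate 3, while most members were highest in replicate 1. Ndufv2 differed by 2.60 ± 0.15 in controls and 2.65 ± 0.16 in AKO, and Ndufs1 by 2.90 ± 0.20 and 2.95 ± 0.16.

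The Q module holds the other core members. Ndufs7, which carries the cluster next to the quinone site, had levels in WAT controls 52.5, 50.1 and 41.3, in WAT AKO 51.7, 58.5 and 54.0, in BAT controls 220.4, 256 and 202 and in BAT AKO 238, 210.2 and 205 FPKM. Ndufs8, a ferredoxin-like subunit whose clusters lead electrons to Ndufs7, had levels in WAT controls 55.3, 52.4 and 45.5, in WAT AKO 49.7, 50.1 and 56.0, in BAT controls 251, 275 and 233 and in BAT AKO 279, 232 and 252 FPKM. Ndufs3, a Q module subunit without a redox centre, had levels in WAT controls 52.7, 47.3 and 45.5, in WAT AKO 50.9, 54.3 and 52.0, in BAT controls 179, 200.4 and 166 and in BAT AKO 189, 169 and 175 FPKM. In each, the lowest BAT library was above the highest WAT library. The log2 difference in controls was 2.59 ± 0.16 for Ndufs7, 2.66 ± 0.14 for Ndufs8 and 2.26 ± 0.14 for Ndufs3. In AKO it was 2.56 ± 0.14, 2.87 ± 0.12 and 2.33 ± 0.12. As a description, the median over the 6 core members was 2.63 in controls and 2.76 in AKO, and over the 29 accessory members 2.21 and 2.33.

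Accessory subunits covered the full range. Ndufa10, a nucleoside kinase-like subunit of the proximal membrane arm, had levels in WAT controls 48.8, 41.3 and 38.6, in WAT AKO 42.6, 47.5 and 45.1, in BAT controls 280.3, 279 and 264 and in BAT AKO 271, 251 and 289 FPKM. It was the second widest difference after Ndufv1, at 3.03 ± 0.16 in controls and 3.15 ± 0.14 in AKO. Ndufa7, an accessory subunit of the peripheral arm, had levels in WAT controls 40.8, 38.9 and 38.3, in WAT AKO 39.9, 41.1 and 41.9, in BAT controls 86.1, 84.8 and 77.3 and in BAT AKO 89.9, 82.1 and 87.3 FPKM. Its difference was 1.43 ± 0.11 in controls, narrower than all but Ndufb2 (1.23 ± 0.20, adjusted p = 0.00256, edgeR). In AKO the narrowest were Ndufb2 at 1.35 ± 0.19 and Ndufa2 at 1.51 ± 0.14. Ndufa2, of the N module, had levels in WAT controls 137, 137 and 119, in WAT AKO 130.4, 153 and 139, in BAT controls 304, 300.2 and 275 and in BAT AKO 297, 262 and 254 FPKM. The fold between tissues thus was not the same for all subunits. The FPKM ratio of Ndufv1 to Ndufa7, a pair picked from the ends of the range after the values were seen, was 1.69 to 1.87 in WAT controls and 5.48 to 6.10 in BAT controls. In AKO it was 1.82 to 1.88 in WAT and 5.31 to 5.84 in BAT.

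Beside Ndufv1, accessory members had the smallest p between the tissues in controls. Ndufa3, a small proximal arm subunit, had levels in WAT controls 28.4, 35 and 26.9, in WAT AKO 27.7, 34.2 and 34.7, in BAT controls 97.0, 106 and 99.9 and in BAT AKO 104, 103 and 105 FPKM. Ndufa1, X-linked and of the proximal arm, had levels in WAT controls 93.4, 89.8 and 76.5, in WAT AKO 98.8, 106 and 104, in BAT controls 435, 479 and 407 and in BAT AKO 487, 430.3 and 409 FPKM. Ndufb5, of the distal arm, had levels in WAT controls 6.98, 6.27 and 6.24, in WAT AKO 6.80, 7.94 and 7.24, in BAT controls 31.2, 33.7 and 27.5 and in BAT AKO 32.7, 31.1 and 28.0 FPKM. All 3 were separated between tissues, and in controls they differed by 2.11 ± 0.11, 2.70 ± 0.14 and 2.60 ± 0.14 on the log2 scale (adjusted p = 4.88e-05 for each, edgeR). Ndufa6, a LYR-motif subunit at the hinge of the peripheral arm, had levels in WAT controls 102, 87.1 and 72.6, in WAT AKO 104, 105 and 105, in BAT controls 400.1, 423 and 355 and in BAT AKO 441, 421 and 417 FPKM. Ndufab1, the mitochondrial acyl carrier protein that also serves fatty acid synthesis in the matrix, had levels in WAT controls 4.05, 3.35 and 3.27, in WAT AKO 3.72, 3.56 and 3.30, in BAT controls 15, 14.2 and 13.9 and in BAT AKO 16.6, 14.7 and 15.9 FPKM. In AKO these differed between tissues by 2.60 ± 0.11 (adjusted p = 5.07e-06) and 2.73 ± 0.11 (adjusted p = 5.35e-06, edgeR).

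By module, all members were called higher in BAT in both genotypes. Median log2 differences in controls were 2.36 for the N module (range 1.43 to 3.15), 2.59 for the Q module (2.26 to 2.67), 1.98 for the proximal arm (1.65 to 3.03) and 2.33 for the distal arm (1.23 to 2.75). In AKO they were 2.50, 2.55, 2.23 and 2.39. The ranges of all 4 modules overlapped in each genotype. The mean over libraries of the modules' geometric mean FPKM was 44.8 ± 4.80 (SD, n = 3) for the N module in WAT controls and 169.4 ± 10.7 in BAT controls. For the Q module it was 43.0 ± 3.89 and 193.3 ± 17.3, for the proximal arm 53.7 ± 3.64 and 186.9 ± 10.8, and for the distal arm 25.4 ± 1.98 and 89.9 ± 5.0.

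Skeletal muscle counts moved with the level of the members in WAT. Over 35 members the geometric mean FPKM was 42.3, 39.1 and 35.8 in WAT controls and 39.3, 43.5 and 41.9 in WAT AKO. WAT control 1, with 1.47% muscle marker counts, was the highest of its group for 26 members. WAT AKO 2, with 2.59%, was the highest of its group for 25. In BAT the geometric means were 145.9, 153.8 and 135.5 in controls and 151.9, 138.5 and 141.5 in AKO, and BAT AKO 2, with 1.92% muscle marker counts, was the lowest of its group for 21 members. Without WAT control 1, the median difference between tissues in controls was 2.51. Without WAT AKO 2 and BAT AKO 2, it was 2.51 in AKO. All 35 members were called in both cases.

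**Figure D3:**
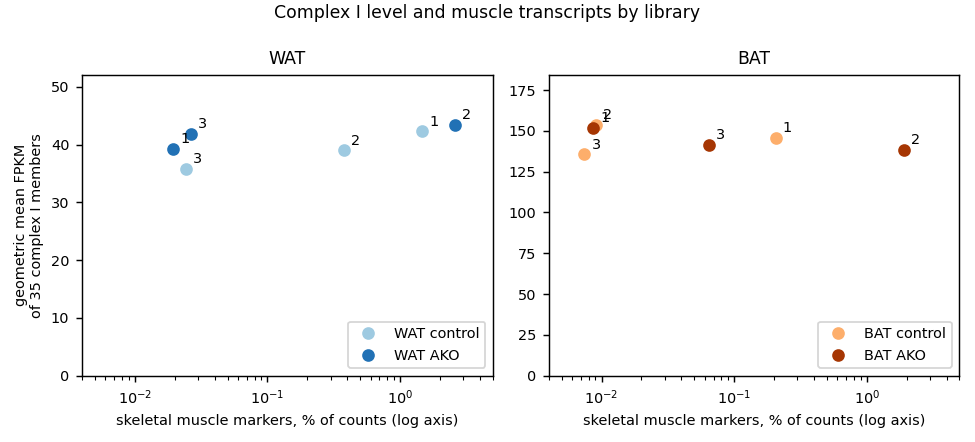
Geometric mean FPKM of the 35 members (vertical axis from 0) against the share of counts in 16 skeletal muscle markers (log axis), for each WAT and BAT library, numbered by replicate. The WAT libraries with most muscle counts, control 1 (1.47%) and AKO 2 (2.59%), have the highest member level of their groups, and BAT AKO 2 (1.92%) has the lowest of its group.

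Other genes of the complex and of the respiratory chain were also higher in BAT. The 7 subunits of complex I encoded by the mitochondrial genome were all called higher, with a median log2 difference of 2.28 in controls (from 2.07 for mt-Nd5 to 3.29 for mt-Nd3) and 3.14 in AKO. In WAT, mt-Nd3 lay at only 3.12 to 6.24 FPKM and mt-Nd4l at 3.27 to 8.34, whereas the others lay at 909 or more. Ndufb1, a distal arm subunit, was at 1.5 ± 0.12 in controls and 1.62 ± 0.12 in AKO. Of 20 assembly factors, which help build the complex and do not stay in it, 17 were called higher in controls and 19 in AKO, with none lower and medians of 1.28 and 1.33. Among those, Foxred1 at 1.93 ± 0.11, Ndufaf4 at 2.03 ± 0.13, Ecsit at 2.03 ± 0.14 and Tmem70 at 1.56 ± 0.12 had the smallest p in controls. Acad9 (0.25 ± 0.13), Tmem126b (0.17 ± 0.09) and Lyrm2 (-0.01 ± 0.14) were not called in controls. Lyrm2 was the 1 not called in AKO (0.04 ± 0.14).

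For comparison, median log2 differences in controls were 2.74 for 4 complex II genes and 2.74 for 9 complex III genes, all called higher. Of 14 complex IV genes 13 were higher, with a median of 2.52. Of 15 complex V genes 12 were higher and 1 lower, with a median of 2.13. Of 77 mitochondrial ribosome genes tested 74 were higher and 1 lower, with a median of 1.00. The members' median of 2.33 stands between those of complexes IV and V, and these differences between lists were not tested. Among 10 regulators of nuclear respiratory genes 6 were called higher in controls, with a median of 0.83. The smallest p were for Esrra (2.55 ± 0.13), an ERR receptor, the coactivators Ppargc1a (3.00 ± 0.22) and Ppargc1b (5.22 ± 0.55), and Tfam (0.89 ± 0.12), which packages the mitochondrial genome. Nrf1, Gabpb1, Pprc1 and Yy1 were not called in controls. In AKO 7 were called higher and 2 lower (Gabpb1 at -0.87 ± 0.13 and Pprc1 at -0.65 ± 0.18).

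**Figure D4:**
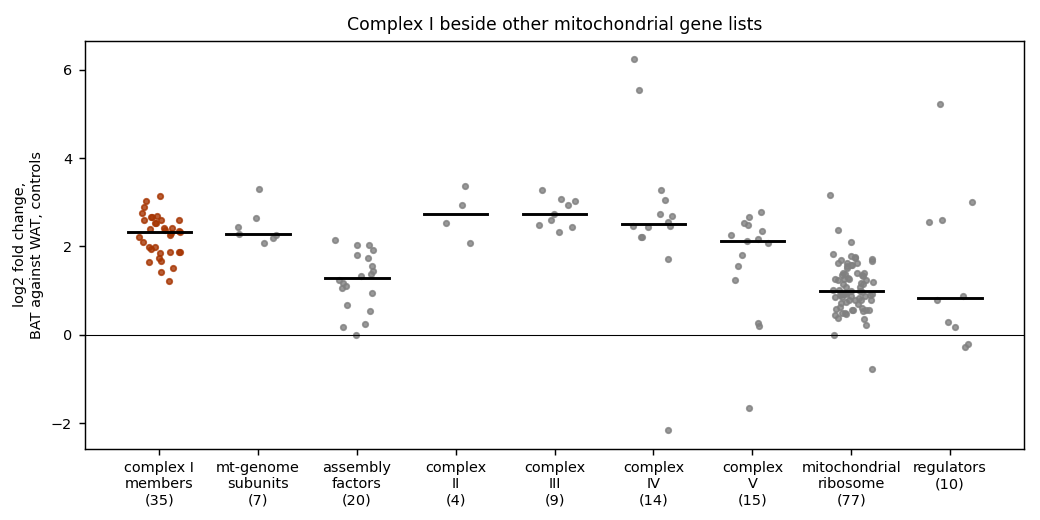
log2 fold change of BAT against WAT in controls for each gene of 9 lists, with the number tested in parentheses, points spread sideways at random and a bar at each median. All 35 complex I members lie between 1.23 and 3.15, with a median of 2.33, and assembly factors and mitochondrial ribosome genes have lower medians (1.28 and 1.00).

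In WAT no complex I member was called between AKO and control. Of 35 members 0 passed the edgeR test, against 0.0189% of 15915 genes called higher and 0% called lower. None had an unadjusted p under 0.05 in edgeR, against 10.6% of genes on the higher and 12% on the lower side. DESeq2 called no member, although it called 4.4% of genes higher and 6.15% lower. Limma voom called no member, beside 0.00628% of genes higher and 0% lower. The members' median log2 difference was -0.03, with 0.00 over all genes, and members ran from -0.24 (Ndufb6) to 0.21 (Ndufa5). With TMM 27 members were below 0 and 8 above, whereas with library totals 26 were above 0, with a median of 0.10 beside 0.14 over all genes. All 95% intervals lay between 0.665-fold and 1.5-fold, with a median width of 1.28-fold to either side. No member had groups that did not overlap, against 15.2% of genes higher and 15.4% lower in every AKO library. B lymphocyte markers (10 genes) took 0.0605 to 0.157% of counts in WAT AKO and 0.000359 to 0.0483% in WAT controls, where Fcmr and Ms4a1 had no count in control 1. Macrophage markers took 0.130 to 0.168% in WAT AKO and 0.159 to 0.213% in WAT controls, with none of the 12 at 0. T lymphocyte markers took 0.0263 to 0.0512% in WAT AKO and 0.000944 to 0.0278% in WAT controls. The part of these markers in the members' values was not tested.

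The members with the smallest p in WAT are given in TMM-scaled CPM. Ndufa11, a membrane subunit of the proximal arm, was at 49.9, 45.8 and 45.8 CPM in the controls and 36.0, 45.8 and 39.9 CPM in AKO. Ndufb6, of the distal arm, was at 47.1, 35.6 and 36.2 CPM in the controls and 29.9, 36.7 and 34.4 CPM in AKO. In both genes the AKO values lay mostly under the controls, and the ranges overlapped or touched. Their differences were -0.22 ± 0.11 (adjusted p = 0.303) and -0.24 ± 0.15 (adjusted p = 0.367, edgeR). Ndufb3, a small distal arm subunit, was at 122, 87.3 and 107 CPM in the controls and 83.7, 97.9 and 91.3 CPM in AKO. Ndufv3, an accessory N module subunit, was at 142, 115 and 107 CPM in the controls and 106, 115 and 99.1 CPM in AKO. WAT control 1 was the highest library for both, and the remaining libraries overlapped. On the other side of 0, Ndufa5, of the Q module, was at 38.9, 35.8 and 31.9 CPM in the controls and 36.8, 49.9 and 36.2 CPM in AKO. Ndufb11, X-linked and of the distal arm, was at 97.0, 82.4 and 68.0 CPM in the controls and 78.3, 95.6 and 86.5 CPM in AKO. For both the highest value was in AKO 2 or control 1, the libraries with most muscle counts. Ndufa6 and Ndufa1 differed by 0.12 ± 0.16 and 0.12 ± 0.13, Ndufa5 by 0.21 ± 0.16, Ndufb11 by 0.07 ± 0.15, Ndufb3 by -0.21 ± 0.14 and Ndufv3 by -0.19 ± 0.13.

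In BAT no member passed either, with 0 of 35 called against 0.0491% of 14265 genes called higher and 0.028% called lower. None had an unadjusted p under 0.05 in edgeR, against 6.87% of genes on the higher and 6.81% on the lower side. DESeq2 called no member, beside 0.932% of genes called higher and 1.03% lower, and limma voom called none, beside 0.0351% and 0.028%. Members ran from -0.17 (Ndufa9) to 0.17 (Ndufab1) on the log2 scale with a median of 0.03, beside 0.01 over all genes. With TMM 28 members were above 0, whereas with library totals 13 were. Intervals were all within 0.778-fold to 1.35-fold, with a median width of 1.16-fold to either side, narrower than in WAT. By TMM-scaled CPM 3 members were higher in every AKO library (background 9.93%) and 1 was lower (background 9.96%). All 16 muscle markers together took more counts in BAT AKO 2 than in any other BAT library. Without it the median of the members was 0.05. Macrophage markers took 0.0227 to 0.0277% of counts in BAT AKO and 0.0310 to 0.0416% in BAT controls, and their part was not tested.

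Those 4 members are shown by library. Ndufab1, the acyl carrier protein, was at 102, 94.8 and 94.6 CPM in the controls and 114, 105 and 111 CPM in AKO. Ndufa6 was at 222, 230.5 and 197 CPM in the controls and 245, 245 and 236 CPM in AKO. Ndufa12, an accessory N module subunit, was at 265, 255 and 245 CPM in the controls and 282, 273 and 279 CPM in AKO. In FPKM, which carries no TMM factor, the AKO and control libraries of these 3 genes overlapped. Ndufa9, a Q module subunit that binds NADPH, was at 391, 410.1 and 373 CPM in the controls and 342, 335 and 366 CPM in AKO, and its groups were apart in FPKM as well (188, 201 and 179.6 against 164, 154 and 172). Its difference was -0.17 ± 0.08 (95% interval -0.36 to 0.02, adjusted p = 0.405, edgeR). For Ndufab1 it was 0.17 ± 0.08 (interval -0.01 to 0.36, adjusted p = 0.392). Ndufa6, Ndufa12 and Ndufa7 differed by 0.16 ± 0.09, 0.12 ± 0.08 and 0.11 ± 0.08. Ndufb7, a distal arm subunit, was at 284, 299.9 and 270.2 CPM in the controls and 289, 253 and 257 CPM in AKO. Ndufb4, of the same arm, was at 152, 155 and 155 CPM in the controls and 154, 150.0 and 153 CPM in AKO. The groups of both overlapped, as did those of Ndufa2 and Ndufa7. Differences were -0.09 ± 0.09 for Ndufb7, -0.07 ± 0.09 for Ndufa2 and -0.01 ± 0.07 for Ndufb4.

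**Figure D5:**
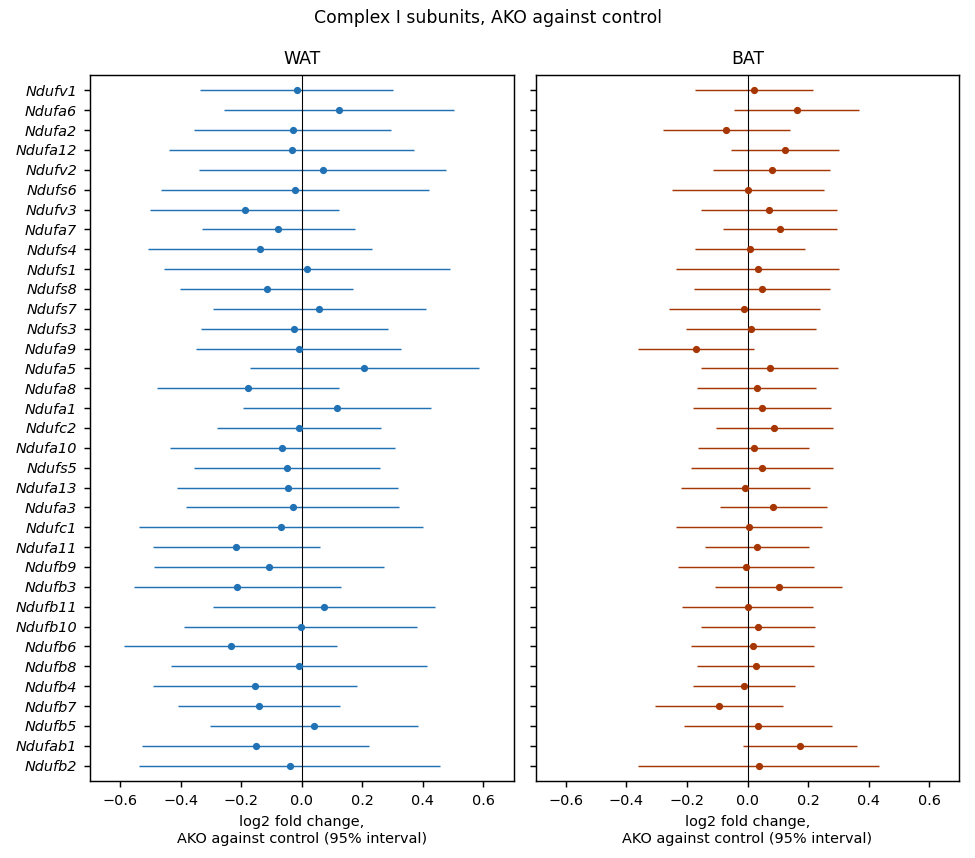
log2 fold change of AKO against control for each member with its 95% interval, in WAT (left) and BAT (right), with members in the order of the level plot. All intervals of both tissues include 0, and BAT members run from Ndufa9 at -0.17 to Ndufab1 at 0.17.

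The effect of AKO was compared between the tissues in a model of all 12 libraries. Of 35 members 0 differed, against 0.153% of 16391 genes called higher in BAT relative to WAT and 0.122% called lower. None had an unadjusted p under 0.05 in edgeR, against 8.35% of genes on the higher and 10.1% on the lower side. DESeq2 called no member, beside 3.76% of genes called higher and 2.17% lower, and limma voom called none, beside 0.0976% and 0.0488%. The median over members was 0.04 on the log2 scale (all genes -0.02), and intervals lay between 0.668-fold and 1.58-fold. With TMM 23 members were above 0, and with library totals 7 were, with a median of -0.11. Smallest p above 0 belonged to Ndufab1 (0.29 ± 0.17), Ndufa11 (0.21 ± 0.13), Ndufb3 (0.28 ± 0.18) and Ndufv3 (0.22 ± 0.17). Below 0 they belonged to Ndufa9 (-0.20 ± 0.17), Ndufa5 (-0.17 ± 0.19), Ndufa1 (-0.10 ± 0.16) and Ndufb11 (-0.11 ± 0.19). The smallest adjusted p of a member was 0.387 (Ndufab1, edgeR).

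None of the related genes was called between AKO and control in either tissue. All 7 mitochondrial-genome subunits were below 0 in WAT (median -0.26, lowest mt-Nd4l at -0.89 ± 0.40), and 6 of 7 were above 0 in BAT (median 0.20). The mt-Nd4l value rests on a low level, at most 8.34 FPKM in WAT. The difference of Ndufb1 was 0.04 ± 0.15 in WAT and 0.13 ± 0.08 in BAT. Medians over the 20 assembly factors were -0.03 in WAT and 0.03 in BAT. The smallest p among these in WAT were for Dmac2 (0.41 ± 0.14), Acad9 (-0.38 ± 0.13), Tmem126a (-0.34 ± 0.12) and Tmem126b (-0.27 ± 0.11). In BAT, Tmem126b was at 30.8, 30.6 and 28.9 CPM in the controls and 35.6, 38.6 and 36.5 CPM in AKO, without overlap, with a difference of 0.29 ± 0.08 (adjusted p = 0.262, edgeR). Its values were thus below 0 in WAT and above 0 in BAT, with an adjusted p of 0.0884 for the difference of effects (edgeR). Among regulators, Gabpb1, a GABP subunit, was at 17.6, 18.0 and 21.4 CPM in the controls and 30.5, 26.2 and 30.3 CPM in AKO in WAT (0.61 ± 0.13, adjusted p = 0.0945, edgeR). Ppargc1a was at 25.2, 23.3 and 22.5 CPM in the controls and 34.3, 28.6 and 47.3 CPM in AKO in BAT (0.63 ± 0.18, adjusted p = 0.273). Neither gene's groups overlapped. Gabpb1 in WAT, and Tmem126b and Ppargc1a in BAT, had the smallest p of their lists. Over all genes tested, 15.2% in WAT and 9.93% in BAT were higher in every AKO library.

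Several member genes share sequence with other genes, so their counts are less certain. Coding transcripts of 7 members had a near-identical processed pseudogene (at least 95% identity over at least 40% of the transcript). For Ndufab1, the copies Ndufab1-ps and Gm4459 (each 99.7% identical) held 36.1% as many counts as the gene over 12 libraries. Gm15920 held 21.1% as many as Ndufa12. The copies of Ndufs3, Ndufb4, Ndufs6, Ndufs5 and Ndufb11 held 4.21, 3.25, 1.55, 0.636 and 0.108%. With copies added to their members, all 35 were again higher in BAT in both genotypes and 0 were called between AKO and control in either tissue. Exons shared with a gene on the opposite strand were longest in Ndufb5 with Mrpl47 (616 bases), Ndufs1 with Ino80dos (489) and Ndufa13 with Tssk6 (375). Ndufb2 shares 146 exon bases with Braf on the opposite strand and 145 with Gm42420 on its own. No source used here gives the strand setting of the counting, so reads of such pairs cannot be told apart.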

How the data were processed

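The authors deposited raw counts, given as whole numbers for each Ensembl gene ID. They also deposited FPKM values, in which each count is scaled by 1 length per gene and by its library's total (largest relative deviation 1.47e-08). Per the submitters' processing notes the reads were processed on mm10 with HTSeq 0.6.0, HISAT2 2.1.0 and Bowtie2 2.2.3. What each tool did, and with which gene annotation or strandedness, is not stated. Symbols came from gene names matched to 52403 of 52550 IDs. Counts were tested with edgeR 4.0.16 (R 4.3.3), with TMM, a filter of at least 10 counts in a group's libraries and 15 in total, the quasi-likelihood test and Benjamini-Hochberg adjustment over all genes tested. All 35 members passed that filter in each comparison. Each comparison used only its 6 libraries, and the difference of effects used 12. Alternatives used DESeq2 1.42.0, limma 3.58.1 and other scalings, filters and libraries. The scripts were tested on simulated data. Copies were sought with blastn 2.17.0 in GENCODE transcripts. Members and lists were chosen with earlier results of these data known. Every core subunit, the members with the smallest p, the widest and narrowest differences and the extreme levels were named. Same-numbered WAT and BAT libraries deviated together (correlations 0.517, 0.230 and 0.451 in controls, 0.569, 0.677 and 0.140 in AKO). The exception was WAT AKO 3, whose best match was BAT AKO 1. In an alternative fit the numbers were taken to pair the tissues, from the data and not from the labels. This pairing is not certain, and the main tests treated the libraries as unpaired. Arms of 3 libraries limit precision.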

Additional observations from a re-analysis of the deposited data

How the results depend on the processing

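All 35 members were called higher in BAT in both genotypes, and 0 between AKO and control or in the difference of effects, under every alternative run. The median log2 difference between tissues was 2.33 in controls and 2.39 in AKO. With library totals it was 1.98 and 1.82, with totals less the mitochondrial-genome counts 2.18 and 2.05, and with limma on log2(FPKM + 1) 1.94 and 1.81. The cause of these shifts was not tested. Leaving out each replicate gave 2.26 to 2.51 in controls and 2.32 to 2.51 in AKO. The fits without the most muscle-rich libraries gave 2.51 in each. With the replicate block, which here joined WAT and BAT libraries of the same number, the medians were 2.34 and 2.39. In the AKO comparisons they were -0.04 in WAT, 0.03 in BAT and 0.03 for the difference, with no call changed. For these and the difference the block joined AKO and control libraries of the same number within a tissue. A block that pairs WAT with BAT libraries was not fitted for the difference. Same-numbered AKO and control libraries did not deviate together (correlations -0.476, -0.017 and 0.226 in WAT, -0.617, -0.294 and 0.117 in BAT), so there the number is only a name. The median difference of AKO effects, 0.04, was -0.11 with library totals and -0.10 with limma on FPKM. Leaving out each replicate moved it from -0.05 to 0.14. In the same fits the median AKO effect ran from -0.15 to 0.05 for WAT, and for BAT it lay between -0.01 and 0.08. Leaving out each replicate moved Ndufb11 from -0.053 to 0.20 in WAT, where it was below 0 without WAT control 3 and without WAT AKO 2 (-0.01), and its difference of effects from -0.21 to 0.021, above 0 without WAT control 3. Adding near-identical copies to the members was chosen after seeing the data and left the medians at 2.33, 2.39, -0.03, 0.03 and 0.04. With 3 libraries a group, AKO effects within the intervals given could not be told from 0.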
